A study of Mus musculus with 18 samples.

Results

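The mitochondrial genome of the mouse supplied 37 of the 35006 gene names counted in 18 retinal RNA libraries. They were taken as every name that starts with mt-, which gave 13 protein genes, 22 tRNA genes and 2 rRNA genes. The libraries came from retinas of male mice in 4 groups. WT were C57BL/6J mice (n = 3) and WT + NACET were C57BL/6J mice given N-acetylcysteine ethyl ester, an antioxidant that raises cellular cysteine (n = 6). Akita were C57BL/6-Ins2Akita/J mice, heterozygous for a misfolding insulin mutation that makes them diabetic (n = 4), and Akita + NACET were such mice given NACET (n = 5). NACET was dosed at 50 mg/kg/day in drinking water at 0.33 mg/mL from 4 to 24 weeks of age, and the other mice drank vehicle water over the same weeks. All mice were of 1 sex. The paper describes the mutation as spontaneous and toxic to the insulin-producing cells of the pancreas. By what route the genotype reaches the retina was not tested. Each library had 11495596 to 17814480 counts in genes. The labels do not say which animal each library came from, so p-values measure the spread between these libraries.

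The proteins encoded by mitochondrial DNA (mtDNA) are all subunits of the respiratory chain and ATP synthase. The Nd genes encode parts of complex I, mt-Cytb a part of complex III, the Co genes the core of complex IV (cytochrome c oxidase), and mt-Atp6 and mt-Atp8 parts of ATP synthase. The 2 rRNAs and the tRNAs serve the ribosomes that make these proteins inside the organelle. Both strands of the circle are copied as long transcripts from which the tRNAs are cut out, freeing the mRNAs and rRNAs between them. Photoreceptors hold dense bundles of mitochondria in their inner segments and are the main oxygen consumers of the retina.

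Of the 37 genes, 8 protein genes and 10 tRNA genes passed the filter on low counts, and both rRNA genes passed when rRNA was kept in the table. The protein genes that did not pass were mt-Atp6, mt-Atp8, mt-Co2, mt-Co3 and mt-Nd4l. mt-Atp8, mt-Co3 and mt-Nd4l had 0 counts in every library. mt-Co2 had 105 counts in WT replicate 3 and 0 in the other libraries. mt-Atp6 had 357 counts in Akita + NACET replicate 1, 145 in WT + NACET replicate 4, 1 each in Akita replicate 3 and WT replicate 3, and 0 elsewhere. Among the tRNA genes 8, mt-Td, mt-Tg, mt-Th, mt-Tk, mt-Ts1, mt-Ts2, mt-Tw and mt-Ty, had 0 counts in all libraries, and mt-Ta, mt-Te, mt-Ti and mt-Tr had at most 11.

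The 5 protein genes that did not pass lie where mtDNA has an exact copy in the nuclear genome. In the mm9 build (NCBIM37), bases 6394 to 9460 of the 16299 bases of mtDNA stand without a mismatch on chromosome 1, minus strand, at 24619957 to 24623023, an exact match of 3067 bases. Bases 9462 to 9828 and 9821 to 11042 match exactly at 24619589 to 24619955 and at 24618374 to 24619595. Over bases 6394 to 9820 there was 1 mismatch in 3427 bases (99.97% identity). The copy runs from the second part of mt-Co1 through mt-Co2, mt-Atp8, mt-Atp6, mt-Co3, mt-Nd3 and mt-Nd4l into mt-Nd4. The submitters did not count reads that aligned to several places, and such alignments stood at 7.47% to 10.2% of all entries per library. The sequences below show the copy's first edge in mt-Co1, its single base mismatch in mt-Nd3 and its last edge in mt-Nd4, with bases that differ between mtDNA and the nuclear copy in capitals.
mt-Co1 edge, chrM:6364-6423, plus strand: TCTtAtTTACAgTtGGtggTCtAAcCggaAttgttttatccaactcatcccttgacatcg
mt-Co1 edge, chr1:24622994-24623053, minus strand: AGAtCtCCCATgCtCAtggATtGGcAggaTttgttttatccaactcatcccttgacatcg
mt-Nd3 start, chrM:9431-9490, plus strand: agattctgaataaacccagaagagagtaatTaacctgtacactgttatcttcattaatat
mt-Nd3 start, chr1:24619927-24619986, minus strand: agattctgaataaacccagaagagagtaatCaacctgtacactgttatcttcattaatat
mt-Nd4 edge, chrM:11013-11072, plus strand: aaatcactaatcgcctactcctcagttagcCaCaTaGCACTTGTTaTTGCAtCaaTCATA
mt-Nd4 edge, chr1:24618344-24618403, minus strand: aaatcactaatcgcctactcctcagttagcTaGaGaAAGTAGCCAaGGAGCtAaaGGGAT
The copy also has 1 extra base within mt-Tr, between 24619595 and 24619597, which match bases 9821 and 9820. The mismatch is T9461C, counted from the first base of mtDNA, with the mtDNA base first. Of the 30 bases before the mt-Co1 edge 18 differed, and of the 30 after the mt-Nd4 edge 23 differed.

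Each gene was cut into all its windows of 50 bases and the share of windows with an exact copy outside mtDNA was taken. The share was 100% for mt-Co2, mt-Atp8, mt-Atp6, mt-Co3 and mt-Nd4l, the 5 protein genes at or near 0. It was 99% for mt-Nd3, whose only 3 uncopied windows cover the mismatch, and mt-Nd3 had 7 to 42 counts per library. It was 62.2% for mt-Nd4 and 51.1% for mt-Co1. It was 8.29% for mt-Nd2, 7.61% for mt-Nd5, 6.13% for mt-Rnr2, and 0% for mt-Nd1, mt-Nd6, mt-Cytb and mt-Rnr1. Of the 8 tRNA genes at 0, 7 were copied over all windows and mt-Ts2, the shortest at 59 bases, had no copied window. mt-Tn and mt-Te were also copied over all windows and yet had 1 to 14 and 1 to 9 counts per library. The read length is not given in the sources used here. With windows of 75 bases, 32.2% of the whole mtDNA was copied, against 35.8% with 50. Only exact copies were searched, and how far the copies set the counts was not tested.

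**Figure D1:**
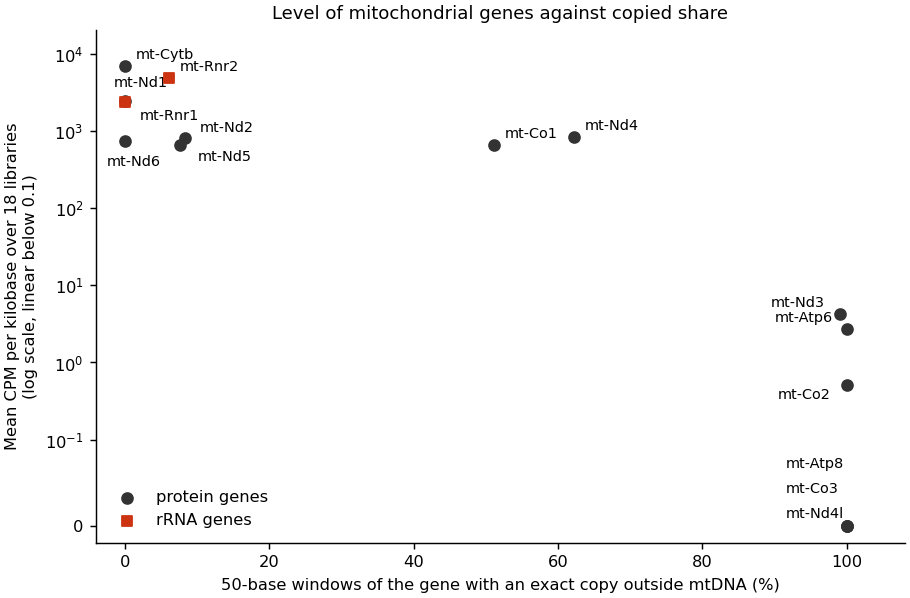
Mean level of the 13 protein genes (circles) and 2 rRNA genes (squares) over 18 libraries, in CPM per kilobase of gene on a log scale that is linear below 0.1, against the percent of 50-base windows with an exact copy outside mtDNA. The genes at 100% sit between 0 and 2.69 while mt-Nd4, at 62.2%, sits at 829.6.

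Levels are given in CPM, the counts scaled to a common library total. That total left out rRNA genes, except for the levels of mt-Rnr1 and mt-Rnr2, where they were kept. The mt protein genes together took 1.17% to 1.89% of the counts in genes, with a mean and SD of 1.41% ± 0.094 for the 3 WT libraries, 1.56% ± 0.181 for the 6 of WT + NACET, 1.42% ± 0.178 for the 4 of Akita and 1.46% ± 0.065 for the 5 of Akita + NACET. The groups overlapped, the lowest library being Akita replicate 4 and the highest WT + NACET replicate 6. This share leaves out the copied genes, so it is not the full share of mitochondrial RNA.

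To compare genes, CPM was expressed per kilobase of uncopied windows, counting each window by its first base. On this scale mt-Cytb stood at 7209 ± 866 (SD over 18 libraries) and was above mt-Rnr2, at 5240 ± 1149, in 18 of 18 libraries. mt-Rnr2 was in turn above mt-Nd1, at 2529 ± 345, in all 18. mt-Nd1, mt-Rnr1 (2495 ± 1399) and mt-Nd4 (2277 ± 313) were not in a fixed order, since mt-Nd1 was above mt-Rnr1 in 10 of 18 libraries and mt-Rnr1 above mt-Nd4 in 8 of 18. mt-Nd4 was above mt-Co1, at 1387 ± 281, in 17 of 18. mt-Nd2 (929 ± 139), mt-Nd6 (825 ± 106) and mt-Nd5 (725 ± 86.1) kept that order in 18 of 18 libraries although the differences between neighbours were near their SD. mt-Nd3 came last at 485 ± 189, on only 3 windows. Reads that lie across the border of adjoining genes were not counted by the submitters' rule, and mt-Nd6, which is read from the opposite strand, could not be told apart from RNA of the other strand because the counting did not use strand.

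The 12S rRNA gene mt-Rnr1, at chrM:70-1024, encodes the RNA of the small mitochondrial ribosomal subunit. Its level in WT was 1629, 1186 and 1484 CPM. In Akita it was 4419, 4496, 4123 and 3370 CPM. Every Akita library was above every WT library. In the fit across all genes with rRNA kept, mt-Rnr1 was 2.86-fold higher in Akita than in WT (log2 fold change 1.52, SE 0.21, adjusted p = 0.00571) and had the lowest p of 16199 genes, of which 7.64% were called at an adjusted p of 0.05 or less. The call was lost without WT replicate 2, at 1.40 on the log2 scale (adjusted p = 0.0513). It was also lost in a fit that took reads outside exons as a covariate, at 1.36 (SE 0.25, adjusted p = 0.255). Such reads made up 11.5% ± 1.83 in Akita and 16.3% ± 1.24 in WT. Their ranges, 9.67% to 13.3% and 14.9% to 17.1%, did not overlap, so the covariate followed the genotype in these groups.

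In Akita + NACET mt-Rnr1 stood at 3627, 2519, 3078, 2418 and 1528 CPM. Replicate 5, the lowest, fell into the range of WT, and replicate 1, the highest, into the range of Akita. mt-Rnr1 was 1.56-fold lower in Akita + NACET than in Akita (log2 fold change -0.64, SE 0.17, adjusted p = 0.0300), where 9.65% of 16199 genes were called. This call did not withstand the loss of single libraries. Without Akita replicate 1, 2, 3 or 4, or without Akita + NACET replicate 2, 4 or 5, the adjusted p was 0.0520 to 0.0667. It was 0.628 with the reads outside exons as a covariate, and reads outside exons made up 16.4% ± 2.103 in Akita + NACET. Their range there, 14.26% to 19.77%, did not overlap with the 9.67% to 13.26% of Akita, so the covariate followed NACET in these groups.

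In WT + NACET mt-Rnr1 ranged from 1020 to 1280 CPM with a median of 1104. All 5 Akita + NACET libraries were above all 6 of these. The difference was 2.32-fold (log2 fold change 1.21, SE 0.16, adjusted p = 9.595e-05), with 13.3% of 16199 genes called, and it stayed called in 20 of 20 alternative fits. WT + NACET against WT was not called (log2 fold change -0.34, SE 0.18, adjusted p = 0.303), where 1.48% were called. Akita + NACET against WT put mt-Rnr1 at 0.88 on the log2 scale (SE 0.19, adjusted p = 0.388), and DESeq2 on all 18 libraries called it (0.89, adjusted p = 0.0159). In the edgeR fit only 0.00617% of genes, 1 of 16199, were called in that comparison, and 751 had an unadjusted p under 0.05. The interaction of genotype and NACET was -0.30 (SE 0.25, adjusted p = 0.402), with 20.3% called.

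The 16S rRNA gene mt-Rnr2, at chrM:1094-2675, is cut from the same long transcript just after mt-Rnr1, with only mt-Tv between them. It was not called in any of the 6 comparisons. Its level was 8561, 6309 and 7693 CPM in WT and 9699, 10360, 9766 and 7085 CPM in Akita. The ranges overlapped, with Akita replicate 4 the lowest of its group, and the log2 fold change was 0.30 (SE 0.19, adjusted p = 0.341). In Akita + NACET the levels were 9208, 7291, 8953, 7307 and 5103 CPM, and in WT + NACET they ran from 5013 to 8237 with a median of 6232. The log2 fold change was -0.29 (adjusted p = 0.273) for Akita + NACET against Akita and 0.24 (adjusted p = 0.285) against WT + NACET. It was -0.23 for WT + NACET against WT, 0.01 for Akita + NACET against WT and -0.05 for the interaction.

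The balance of the 2 rRNAs is free of the scaling between libraries. Of the counts in mt-Rnr1 and mt-Rnr2, mt-Rnr1 made up 15.98%, 15.83% and 16.17% in WT. In WT + NACET its share ranged from 13.2% to 17.3% with a median of 15.5%. In Akita it was 31.3%, 30.3%, 29.7% and 32.2%. In Akita + NACET it was 28.3%, 25.7%, 25.6%, 24.9% and 23.0%. All 9 libraries of the Akita genotype were thus above all 9 of the WT genotype, and all 4 Akita libraries were above all 5 Akita + NACET libraries, while WT and WT + NACET overlapped. The group means were 15.99% ± 0.17 in WT, 15.3% ± 1.68 in WT + NACET, 30.9% ± 1.13 in Akita and 25.5% ± 1.88 in Akita + NACET (SD). This was a description chosen after the values were seen, and no test was made of it.

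The libraries were made from poly(A) RNA, which an rRNA can reach through a short added tail or through A-rich stretches of its own. The longest run of A in each rRNA is therefore shown, in capitals, with its surroundings.
mt-Rnr1, chrM:690-739, plus strand: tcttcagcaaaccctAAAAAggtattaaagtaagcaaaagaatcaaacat
mt-Rnr2, chrM:1473-1522, plus strand: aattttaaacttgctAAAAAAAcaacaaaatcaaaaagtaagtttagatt
The run was 5 bases in mt-Rnr1 and 7 in mt-Rnr2, and A made up 37.8% and 38.2% of the genes. Tail lengths were not measured, so a change in rRNA level and a change in the share of rRNA captured cannot be told apart. The authors removed rRNA genes before their own analysis.

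**Figure D2:**
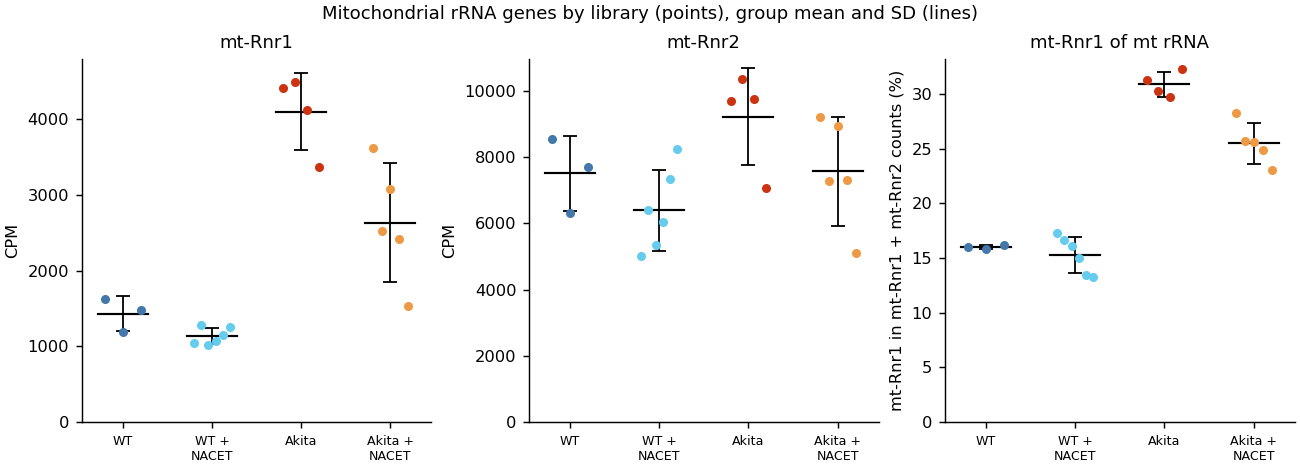
Levels of mt-Rnr1 and mt-Rnr2 in CPM, and mt-Rnr1 in percent of the counts of both, for each library (points) of the 4 groups, with the group mean and SD (lines). mt-Rnr1 made up 29.7% to 32.2% in Akita, 23.0% to 28.3% in Akita + NACET and 13.2% to 17.3% in the WT and WT + NACET libraries.

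No mt protein gene was called in Akita against WT, where 7.64% of 16183 genes were called in the fit without rRNA genes, and none of the 8 had an adjusted p below 0.136. DESeq2 on all 18 libraries called 1, mt-Cytb. The 7.64% belongs to the edgeR fit, and the share of all genes called in the DESeq2 fit is not given. The median log2 fold change of the 8 was 0.11, against -0.01 over all genes tested, and 5 of the 8 were positive. mt-Cytb, the complex III subunit at chrM:14145-15288, was 6638, 6358 and 7962 CPM in WT and 8253, 7986, 8813 and 8423 CPM in Akita. The 2 groups did not overlap, by the small gap between WT replicate 3 and Akita replicate 2. The log2 fold change was 0.26 (SE 0.11, adjusted p = 0.136).

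The complex I genes were near each other in these groups. The log2 fold change in Akita against WT was 0.24 for mt-Nd1 (SE 0.14), 0.06 for mt-Nd2 (SE 0.13), 0.16 for mt-Nd4 (SE 0.12), -0.00 for mt-Nd5 (SE 0.13) and -0.10 for mt-Nd6 (SE 0.12). mt-Nd3 had a log2 fold change of -0.67 with an SE of 0.35. The complex IV gene mt-Co1 had 836.3, 940.9 and 911.3 CPM in WT and 1055, 1128, 1074 and 831.5 CPM in Akita, which differed by 0.19 on the log2 scale (SE 0.14, adjusted p = 0.387). Akita replicate 4 was below all WT libraries and the other 3 Akita libraries were above them. The scaling factor of that library, 0.803, was the lowest of the 18.

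Akita + NACET against Akita likewise gave no called mt protein gene (9.65% of 16183 genes called, 4701 with an unadjusted p under 0.05), and the lowest adjusted p of the 8 was 0.103, for mt-Co1. DESeq2 on the 9 libraries of these groups called 1, again mt-Cytb, downward, in a fit whose share of all genes called is not given. mt-Cytb stood at 7521, 6535, 7430, 7456 and 6967 CPM in Akita + NACET. All 5 were below the 4 Akita libraries, and the log2 fold change was -0.22 (SE 0.10, adjusted p = 0.136). mt-Nd1 was at -0.25 (SE 0.12), mt-Nd2 at -0.14 (SE 0.11), mt-Nd4 at -0.20 (SE 0.10), mt-Nd5 at -0.07 (SE 0.11), mt-Nd6 at -0.01 (SE 0.10) and mt-Nd3 at 0.09 (SE 0.32). mt-Co1 went the other way, at 0.30 (SE 0.12), and its 5 levels of 1422, 1039, 1215, 1238 and 1390 CPM included 4 above every Akita library.

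WT + NACET against WT gave no call among the 8 (1.48% of 16183 genes called), and the median log2 fold change was 0.22, with 7 of 8 positive. mt-Nd4 was at 0.31 (SE 0.11, adjusted p = 0.131) and mt-Cytb at 0.30 (SE 0.10, adjusted p = 0.126), and DESeq2 on all libraries called these 2. The 1.48% belongs to the edgeR fit, and the share of all genes called in the DESeq2 fit is not given. The other complex I genes stood at 0.17 for mt-Nd1, 0.27 for mt-Nd2, 0.27 for mt-Nd3, 0.12 for mt-Nd5 and 0.14 for mt-Nd6, and mt-Co1 at -0.06. Akita + NACET against WT gave no call either (0.00618% called, 750 genes with an unadjusted p under 0.05). The highest of the 8 values there was mt-Co1, at 0.49 (SE 0.13, adjusted p = 0.707), whose 5 Akita + NACET libraries lay above the 3 WT libraries. DESeq2 on these 8 libraries called 1 mt protein gene, mt-Co1. The 0.00618% belongs to the edgeR fit, and the share of all genes called in the DESeq2 fit is not given. The others stood at 0.04 for mt-Cytb, -0.01 for mt-Nd1, -0.07 for mt-Nd2, -0.58 for mt-Nd3, -0.04 for mt-Nd4, -0.07 for mt-Nd5 and -0.11 for mt-Nd6.

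The mt protein genes that were called in a comparison of 2 groups were found in Akita + NACET against WT + NACET, with 1 higher and 3 lower of 8, where 13.3% of 16183 genes were called. mt-Co1 rose 1.46-fold (log2 fold change 0.55, SE 0.11, adjusted p = 0.00382). Its level in WT + NACET ran from 761.6 to 1095 CPM with a median of 820.6. Akita + NACET replicate 2, at 1039 CPM, overlapped with WT + NACET replicate 6, and the other 4 were above the 6. The call held in 21 of 21 alternative fits, including the fit with reads outside exons as a covariate (adjusted p = 0.0360).

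mt-Nd4 fell by 0.35 on the log2 scale (SE 0.09, adjusted p = 0.0188). It was 1086, 953.1, 1053, 1078 and 899.5 CPM in Akita + NACET and 1165 to 1543 CPM, with a median of 1246, in WT + NACET, without overlap. mt-Nd2 fell by 0.35 as well (SE 0.10, adjusted p = 0.0315), from a median of 936.4 CPM (range 837.6 to 1192) to 803.4, 695.9, 763.7, 767.8 and 729.6 CPM, also without overlap. mt-Nd3 fell by 0.85 (SE 0.28, adjusted p = 0.0478) on 0.783 to 1.79 CPM against 1.64 to 2.49 CPM, which overlapped. The call of mt-Nd4 was lost without Akita + NACET replicate 2 or 5 (adjusted p 0.0505 to 0.0605). That of mt-Nd2 was lost without Akita + NACET replicate 2, 4 or 5 or WT + NACET replicate 3 or 6 (0.0575 to 0.0779), and that of mt-Nd3 without any of 9 of the 11 libraries (all but Akita + NACET replicate 1 and WT + NACET replicate 1), at 0.0512 to 0.133. With the reads outside exons as a covariate none of the 3 was called, at -0.21 for mt-Nd4, -0.24 for mt-Nd2 and -0.52 for mt-Nd3. The other 4 genes were also negative and not called, with mt-Cytb at -0.26 (SE 0.09, adjusted p = 0.0506), mt-Nd6 at -0.25 (SE 0.09, adjusted p = 0.0823), mt-Nd5 at -0.19 and mt-Nd1 at -0.18.

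The share of mt-Co1 in the mt protein counts was 8.23% to 10.6% in Akita + NACET, against 6.10% to 7.87% in WT, 5.09% to 5.77% in WT + NACET and 5.73% to 7.35% in Akita. The Akita + NACET libraries did not overlap with any of the other 13. This ratio was chosen after its values were seen, and no test was made of it. Of the 1496 windows of mt-Co1, 765 had an exact copy outside mtDNA.

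The interaction of genotype and NACET asks whether the NACET difference in Akita mice was another than in WT mice. Of the 8 mt protein genes, 2 were called, both negative, where 20.3% of 16183 genes were called. They were mt-Cytb (log2 difference -0.52, SE 0.14, adjusted p = 0.0157) and mt-Nd4 (-0.51, SE 0.15, adjusted p = 0.0222). mt-Cytb was at 0.30 with NACET in WT and at -0.22 with NACET in Akita. The adjusted p rose to 0.0521 and 0.0568 for mt-Cytb and to 0.0510 and 0.0819 for mt-Nd4 when WT replicate 1 or WT replicate 2, in that order, was left out. With the reads outside exons as a covariate the differences shrank to -0.23 (adjusted p = 0.698) and -0.18 (adjusted p = 0.780). Such reads averaged 16.3% in WT, 12.7% in WT + NACET, 11.5% in Akita and 16.4% in Akita + NACET. They were thus lower with NACET in WT and higher with NACET in Akita, so the covariate itself followed the interaction. mt-Co1 was the only positive one, at 0.36 (SE 0.17, adjusted p = 0.140), and the other 5 were at -0.42 for mt-Nd1, -0.41 for mt-Nd2, -0.17 for mt-Nd3, -0.19 for mt-Nd5 and -0.15 for mt-Nd6.

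**Figure D3:**
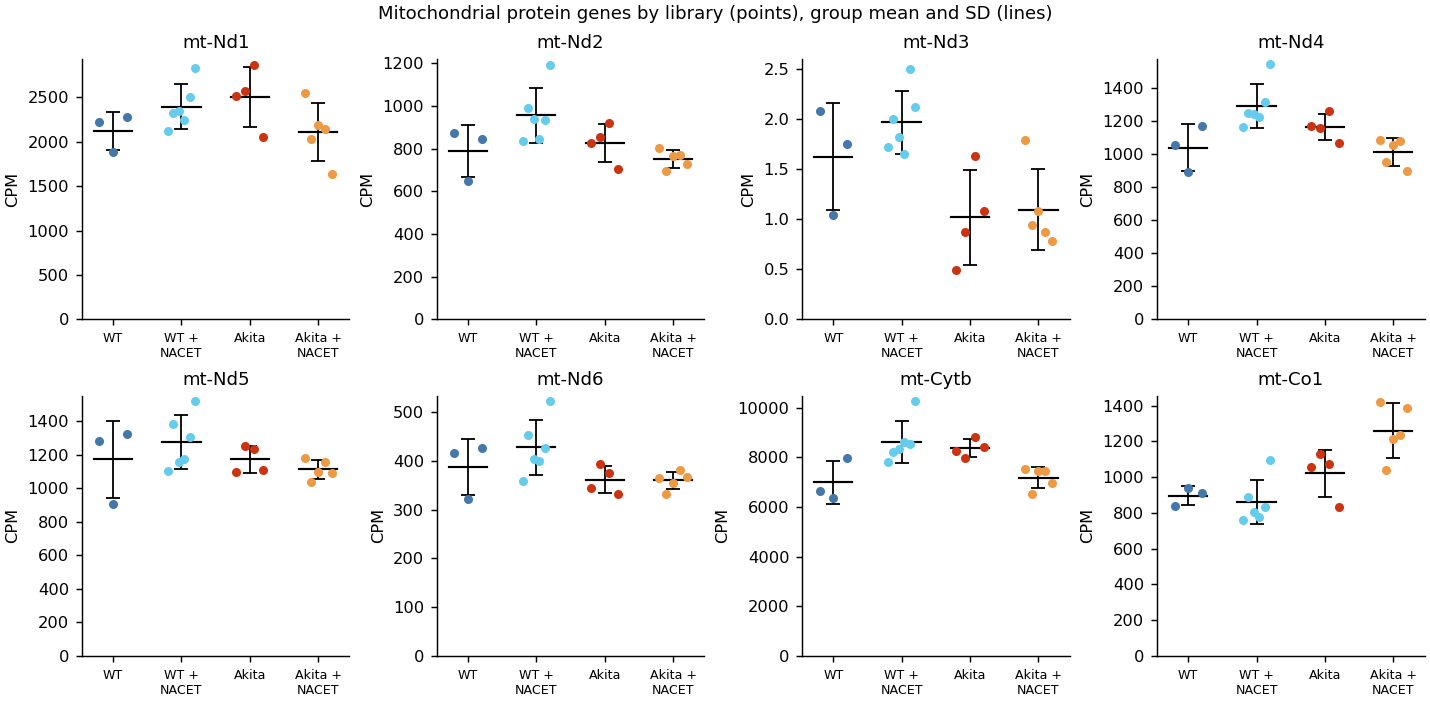
Levels in CPM of the 8 mt protein genes that passed the filter, for each library (points) of the 4 groups, with the group mean and SD (lines). mt-Co1 averaged 1261 CPM in Akita + NACET against 861.1 CPM in WT + NACET, while mt-Nd4 averaged 1014 against 1289 CPM.

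**Figure D4:**
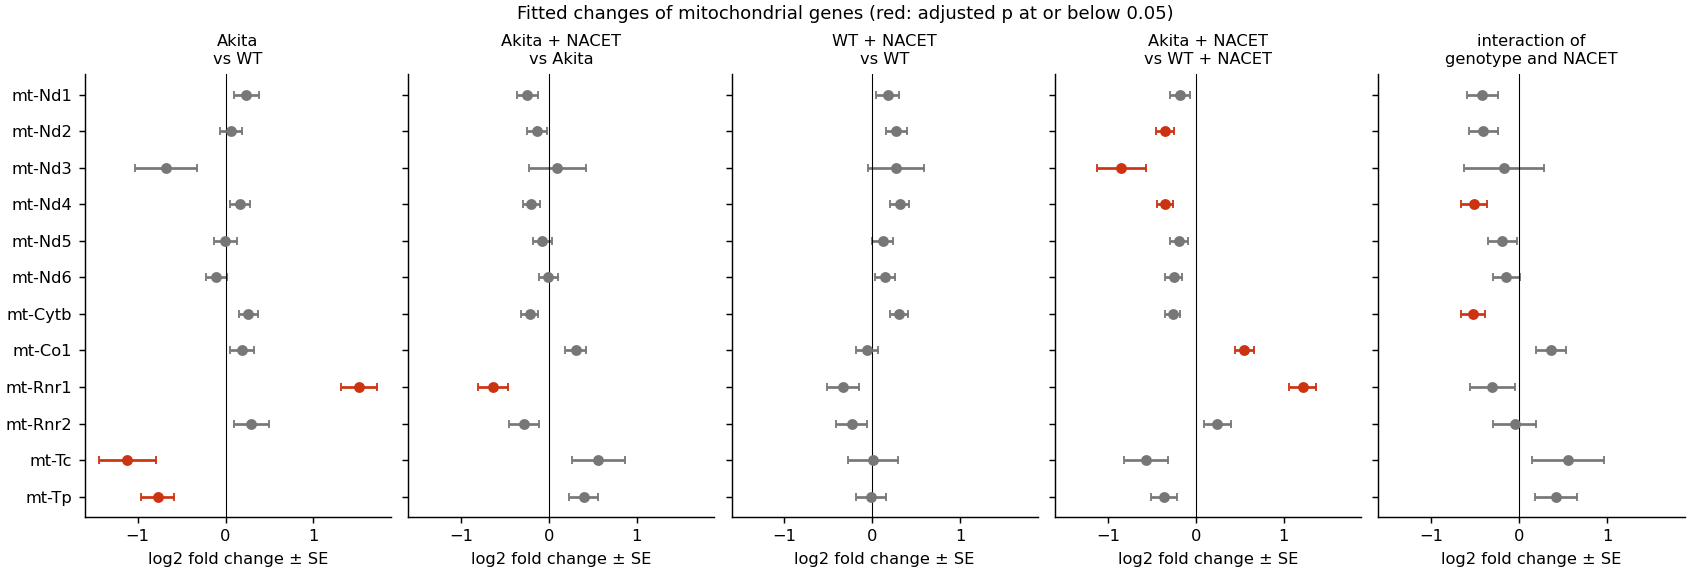
Log2 fold change with its SE for 8 mt protein genes, 2 rRNA genes and the tRNA genes mt-Tc and mt-Tp in 4 comparisons and the interaction, with called genes in red. In Akita against WT mt-Rnr1 stands at 1.52 and the tRNA genes at -1.12 and -0.77, while the protein genes lie between -0.67 and 0.26.

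The tRNA genes had few counts. Mature tRNAs are short and carry no poly(A) tail, so these counts, which take in both strands, are not read as levels of the mature tRNAs. mt-Tp, the proline tRNA gene at chrM:15356-15422 on the minus strand, was the highest at 23.3 ± 6.06 CPM (SD over 18 libraries), and no other tRNA gene averaged above 1.56 CPM. mt-Tp borders the noncoding control region, and with it spans 944 bases that hold no other gene. mt-Tp and mt-Tc, the cysteine tRNA gene at chrM:5192-5257 on the minus strand, were the only called tRNA genes. Their sequences on the strand of the tRNA are given in full.
mt-Tp: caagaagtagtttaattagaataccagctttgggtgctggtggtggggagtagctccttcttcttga
mt-Tc: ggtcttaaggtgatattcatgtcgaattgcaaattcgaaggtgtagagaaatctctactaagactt
No window of mt-Tp and 23.5% of those of mt-Tc had an exact copy.

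In Akita against WT, 2 of the 10 tested tRNA genes were called, both lower, against 7.64% of all genes, and 9 of 10 were negative. mt-Tp was 32.1, 19.7 and 31.3 CPM in WT and 11.2, 21.5, 16.1 and 16.1 CPM in Akita. It fell by 0.77 on the log2 scale (SE 0.19, adjusted p = 0.0236), with WT replicate 2 inside the Akita range. mt-Tc was 2.58, 1.52 and 1.80 CPM in WT and 0.420, 1.504, 0.878 and 0.745 CPM in Akita, and fell by 1.12 (SE 0.32, adjusted p = 0.0411), on 6 to 36 counts per library over all groups. The groups did not overlap, but WT replicate 2 and Akita replicate 2 nearly met. The call of mt-Tp was lost without Akita replicate 4 or any of the 3 WT replicates (adjusted p 0.0517 to 0.133) and that of mt-Tc without Akita replicate 1, 3 or 4 or WT replicate 1 or 2 (0.0653 to 0.207). With the reads outside exons as a covariate neither was called, at -0.82 for mt-Tp (adjusted p = 0.273) and -1.01 for mt-Tc (adjusted p = 0.335). Both were also lost with edgeR on the 2 groups (adjusted p = 0.102 and 0.142) and with the replicate number as a block (0.0577 and 0.0767). mt-Tc was further lost with DESeq2 on the 2 groups (0.128) and without the filter (0.0613). In all, the call was lost in 7 of 17 alternative fits for mt-Tp and in 10 of 16 for mt-Tc.

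The other 8 tRNA genes were not called. In Akita against WT the log2 fold change was -1.54 for mt-Tl2, -1.35 for mt-Tn, -1.23 for mt-Tt, -1.21 for mt-Tl1, -1.17 for mt-Tf, -0.87 for mt-Tv, -0.32 for mt-Tm and 0.01 for mt-Tq. Their adjusted p ran from 0.0704 for mt-Tt to 0.985 for mt-Tq. None of the 10 was called in the other comparisons. The median of the 10 was 0.36 in Akita + NACET against Akita, with 9 of 10 positive, and mt-Tp stood at 0.39 there (SE 0.17, adjusted p = 0.125). mt-Tf was at 0.84, mt-Tv at 0.71, mt-Tc at 0.56, mt-Tn at 0.38, mt-Tt at 0.34, mt-Tq at 0.32, mt-Tl1 at 0.31, mt-Tl2 at 0.15 and mt-Tm at -0.08. The median was -0.39 in Akita + NACET against WT + NACET, where mt-Tl2 was lowest at -1.21 and mt-Tq highest at 0.16, -0.22 in WT + NACET against WT, -0.48 in Akita + NACET against WT, and 0.53 for the interaction, which ran from 0.14 for mt-Tq to 1.10 for mt-Tf. DESeq2 and edgeR on the 2 NACET groups alone called mt-Tp in Akita + NACET against WT + NACET, in fits whose share of all genes called is not given. The comparisons share groups, so these medians are not independent of each other.

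Nuclear genes supply the other subunits of the same complexes. Of 36 tested nuclear subunits of complex I, 1 was called in Akita against WT, Ndufv3, which rose by 0.36 on the log2 scale (adjusted p = 0.0451). The median of the 36 was 0.14, and it was 0.17 for the 45 of complexes II to V, where Cox7a1 alone was called, rising by 1.01 (adjusted p = 0.0165). These are 2.78% and 2.22% of the lists, below the 7.64% of all genes. The mt protein median was 0.11. In Akita + NACET against Akita, 9 of 36 and 14 of 45 were called, all lower, which is 25.0% and 31.1% of each list against 9.65% of all genes. The medians were -0.29 in both lists and -0.10 in the 8 mt protein genes. Among those called were the complex I subunit Ndufa10, at -0.46 (adjusted p = 0.0210), and, at -0.49 each, the ATP synthase subunits Atp5b (adjusted p = 0.0250) and Atp5g3 (adjusted p = 0.0216).

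In Akita + NACET against WT + NACET, 23 of 36 complex I subunits were lower and 28 of 45 of complexes II to V were lower with 1, Cox7a1, higher, at medians of -0.32 and -0.34 against -0.26 in the mt protein genes. That is 63.9% and 64.4% of the lists, against 13.3% of all genes. The lowest value there was -2.80 for Cox8b (adjusted p = 0.0158), named after its value was seen, which averaged 0.533 ± 0.283 CPM in Akita + NACET and 3.73 ± 3.16 CPM in WT + NACET (SD). The interaction was called, and negative, in 21 of 36 (58.3%) and 30 of 45 (66.7%), against 20.3% of all genes, with medians of -0.45 and -0.49 against -0.30. In WT + NACET against WT none of either list was called, at medians of 0.18 and 0.21 against 0.22. In Akita + NACET against WT none was called, at -0.12 and -0.14 against -0.05. The medians over all genes lay between -0.02 and 0.01 throughout. Whether the nuclear and the mitochondrial subunits differed in their change was not tested.

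**Figure D5:**
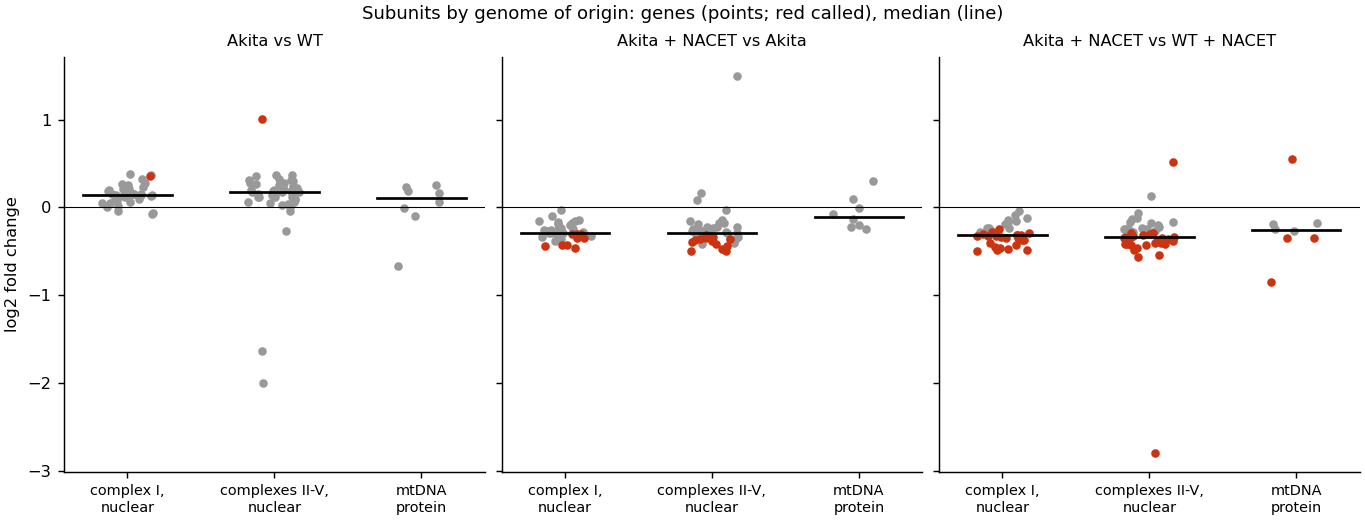
Log2 fold change of each nuclear subunit of complex I, of complexes II to V and of the 8 mt protein genes (points, called genes in red) with the median of each set (line), in 3 comparisons. In Akita + NACET against Akita the medians are -0.29, -0.29 and -0.10.

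The summed level of 6 rod photoreceptor genes differed between the groups as well. It was 89550 to 122900 CPM in WT, 112200 to 149400 in WT + NACET, 129100 to 197300 in Akita and 83440 to 112800 in Akita + NACET, and all 6 genes were above 0 in every library. Among them Nrl was called higher in Akita than in WT, and Nrl, Gnat1 and Pde6a were called lower in Akita + NACET than in Akita. The amacrine cell genes went the other way in Akita against WT, with Gad1 at -0.67 (adjusted p = 0.0273) and Slc6a9 at -0.66 (adjusted p = 0.0365), and the globin gene Hbb-b2 rose by 2.18 in Akita + NACET against Akita (adjusted p = 0.0204). The 2 amacrine cell genes found summed to 265.1 to 361.4 CPM in WT, 214 to 312.5 in WT + NACET, 162.7 to 235.8 in Akita and 245.9 to 301.7 in Akita + NACET, and 5 red blood cell genes to 12.8 to 28.4, 19.99 to 56.3, 11.9 to 33.9 and 35.6 to 97.1 CPM in the same order. Rods are rich in mitochondria, and the part of any cell type's RNA in the differences above was not tested. In whole retina, fewer cells of a type and less RNA per cell cannot be told apart. Among tissues next to the retina, 5 pigment epithelium genes summed to 141.7 to 515.9 CPM in WT, 306.5 to 1378 in WT + NACET, 55.9 to 208.6 in Akita and 85.9 to 654.2 in Akita + NACET. The sum of 4 lens genes was 0.933 to 8.87 CPM in WT, 0.758 to 15550 in WT + NACET, 1.325 to 1350 in Akita and 0.964 to 668.6 in Akita + NACET. Genes of skeletal muscle, another tissue rich in mitochondria, summed to 5.31 to 12.6 CPM over all libraries.

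Other nuclear genes copy and transcribe mtDNA or process its RNA. Of 37 tested, 3 were higher in Akita than in WT (8.11%, against 7.64% of all genes), Top1mt, Polg2 and Tk2. Top1mt, the mitochondrial topoisomerase, rose by 0.59 (SE 0.12, adjusted p = 0.0155), from 25.9 ± 2.03 CPM (SD, n = 3) to 39.1 ± 3.59 CPM (SD, n = 4). It was 24.3 ± 2.82 CPM in Akita + NACET (SD, n = 5) and was the only one of the 37 called against Akita, where it fell by 0.69 (SE 0.10, adjusted p = 0.0104). Polg2, the accessory subunit of the mtDNA polymerase, rose by 0.37 in Akita (adjusted p = 0.0416). The interaction was called in 5 of the 37 (13.5%, below the 20.3% of all genes), with Top1mt at -0.92 (adjusted p = 0.00176), Polg2 at -0.51 (adjusted p = 0.0149), Tk2 at -0.47 (adjusted p = 0.00577), Slirp (listed as 1810035L17Rik) at -0.41 (adjusted p = 0.0372) and Pnpt1 at 0.50 (adjusted p = 0.00813), of which Top1mt and Tk2 were named after their values were seen. Tk2, a mitochondrial thymidine kinase, rose by 0.32 in Akita (adjusted p = 0.0263). Pnpt1 is a nuclease of the mitochondrial RNA degrading complex and Slirp a protein that binds mt mRNAs together with Lrpprc.

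Genes of mitochondrial transcription itself were not called in Akita against WT. The RNA polymerase Polrmt was at -0.03 (SE 0.13), the transcription factors Tfam at 0.13 (SE 0.11), Tfb2m at 0.24 (SE 0.16) and Tfb1m at 0.11 (SE 0.20), and the elongation factor Tefm (1110002N22Rik) at 0.07 (SE 0.15). The termination factor family, Mterf, Mterfd1, Mterfd2 and Mterfd3, ran from -0.13 to 0.06. The tRNA-processing genes Elac2, Rg9mtd1 (Trmt10c) and Hsd17b10 stood at -0.02, 0.05 and 0.09, Lrpprc at 0.23, Supv3l1 at 0.16, Pnpt1 at -0.26, Tbrg4 at 0.02, Fastkd5 at -0.03, Slirp (1810035L17Rik) at -0.02, the helicase Peo1 (Twnk) at -0.06, Polg at -0.10 and Ssbp1 at -0.35. The regulators Ppargc1a and Nrf1 were at 0.23 and 0.10. Over the 24 genes chosen by name, 1 was called in Akita against WT (7.64% of all genes), 0 in Akita + NACET against Akita (9.65% of all genes), where the values ran from -0.24 to 0.18, and 2 in Akita + NACET against WT + NACET (13.3% of all genes), Slirp (-0.44, adjusted p = 0.00358) and Pnpt1 (0.24, adjusted p = 0.0358).

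Genes for mitochondrial protein synthesis made up the last lists. Of 76 mitochondrial ribosomal protein genes, Mrpl35 alone was called in Akita against WT, falling by 0.40 (adjusted p = 0.0181), which is 1.32% of the list against 7.64% of all genes, while the median was 0.06. In Akita + NACET against Akita, 5 of 76 (6.58%, below the 9.65% of all genes) were lower, among them Mrps28 at -0.43 (adjusted p = 0.0291) and Mrpl34 at -0.42 (adjusted p = 0.0345). Against WT + NACET, 23 of 76 (30.3%, against 13.3% of all genes) were lower in Akita + NACET, at a median of -0.21. Of 17 mitochondrial aminoacyl-tRNA synthetase genes none was called in Akita against WT or in Akita + NACET against Akita, and 1 was lower in Akita + NACET than in WT + NACET.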

How the data were processed

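Retinal poly(A) RNA was sequenced single end in 18 libraries. The authors aligned reads to mm9 with TopHat 2.1.0 and counted them over exons with HTSeq-count 0.11.2, without strand and leaving out reads aligned to several places. The deposited values are raw counts per gene for each library. Entries with no gene name (0.00544% of counts) and 185 rRNA gene names (0.977%) were left out of totals and tests. The exceptions were mt-Rnr1 and mt-Rnr2, which were scaled and tested with rRNA genes kept. Counts were fitted with edgeR 4.0.16 (quasi-likelihood F test, TMM scaling, default filter with minimum count 10 and total 15) over all 4 groups and 16183 genes, with Benjamini-Hochberg adjustment and calls at an adjusted p of 0.05 or less. Alternatives used DESeq2 1.42.0, other scalings, filters, covariates and library subsets. In simulated counts for Akita against WT over 16003 genes, 66.7% of 198 genes changed 2-fold were recovered with 3 false calls. Within groups, pairs of libraries differed by more than sampling noise (chi-square per gene 4.82 to 55.0), so none was counted as a duplicate. Exact copies of mtDNA of at least 30 bases were searched in the NCBIM37 genome, and gene positions came from the GENCODE annotation of that build. Named were all protein and rRNA genes, the tRNA genes passing the filter, 24 pathway genes, and at most 2 called genes per direction in each nuclear list, of which 1 is not reported here. The members and lists were chosen with earlier results of these data known.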

Additional observations from a re-analysis of the deposited data

Results flagged for a closer look

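Over 69 sets of 4 to 6 libraries of a group, 6 had a library far from the others. The rule flags about 1 in 20 sets of normally spread values. That rate does not apply to mt-Atp6, where the other libraries of the flagged groups were at 0, so that any count is flagged. mt-Atp6 had 24.6 CPM in Akita + NACET replicate 1 and 8.22 CPM in WT + NACET replicate 4, with 0 in the rest of those groups, and 0.0627 CPM, a single read, in Akita replicate 3. mt-Cytb was 10270 CPM in WT + NACET replicate 6, the library with the highest share of mt protein counts. mt-Tc, at 1.70 CPM, and mt-Tn, at 0.718 CPM, were each higher in Akita + NACET replicate 5 than in the rest of its group, and that library had the lowest mt-Rnr1 of the group. The NACET difference was not the same in both genotypes by the interaction term for mt-Cytb (-0.52) and for mt-Nd4 (-0.51).

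Gm10925, a gene on chromosome 1 that lies inside the nuclear copy of mtDNA, is not among the mt- genes, and no comparison of it is given. It had up to 243 counts, in Akita + NACET replicate 1, the library with 357 counts of mt-Atp6. It also had 240 counts in WT + NACET replicate 2 and 189 in WT + NACET replicate 4, and 0 in the 3 WT libraries. What these reads stem from was not tested.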

How the results depend on the processing

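Direction never changed for a called value in the alternatives run. Of 954 refits of single protein genes, 29 lost and 14 gained a call, and 37 uncalled values changed sign. Of 228 refits of rRNA genes, 12 lost and 3 gained a call, and of 1076 of tRNA genes 17 lost and 6 gained one. The number of mt protein genes called became 1 in Akita vs WT (DESeq2, all groups), 1 in Akita + NACET vs Akita and 1 in Akita + NACET vs WT (DESeq2, 2 groups), 2 in WT + NACET vs WT (DESeq2, all groups), and, with reads outside exons as covariate, 1 in Akita + NACET vs WT + NACET and 0 for the interaction. All genes called in those covariate fits numbered 194 and 17. For the other alternative fits, including those below, the share of all genes called is not given. The shares printed above come from the edgeR fits over all 4 groups without covariates, so they are no background for these counts. Leaving out 1 library at a time gave 1 to 6 calls in Akita + NACET vs WT + NACET, 0 to 4 for the interaction and 0 in the other comparisons. mt-Rnr1 stayed between 1.40 and 1.62 (log2) in Akita vs WT, -0.78 and -0.50 in Akita + NACET vs Akita, and 1.07 and 1.36 in Akita + NACET vs WT + NACET when 1 library was left out. In Akita + NACET vs Akita it was -0.62 with edgeR on the 2 groups (adjusted p = 0.0802) and -0.50 with the covariate, and in Akita vs WT 1.36 with the covariate. The mt share of counts fell to 1.16% (WT), 1.34% (WT + NACET), 1.24% (Akita) and 1.2% (Akita + NACET) with reads outside exons and ambiguous reads in the total, which enlarges the denominator, and ran from 1.37% to 1.46%, 1.498% to 1.6%, 1.37% to 1.504% and 1.44% to 1.48% without single libraries. The causes of the other changes were not tested. The fits of rRNA genes with 2 groups, the covariate, DESeq2 scaling and other filters were added after the data were seen.

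Libraries with the same replicate number showed no common direction of deviation (r -0.332 to 0.345 over 22 pairs, 4 above 0.1). Some pairs did deviate together, but the values were mixed, so the numbers were not used as pairs. With the replicate number as a block, 1 mt protein gene was called in Akita + NACET vs WT + NACET, 2 in the interaction and 0 elsewhere, and mt-Rnr1 in Akita + NACET vs Akita was -0.59 (adjusted p = 0.0566). Few counts limit mt-Nd3 and the tRNA genes.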
